A study of Salmo salar with 13 samples.

Results

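The most abundant transcripts of the Atlantic salmon saccus vasculosus (SV) that have no gene name in the annotation used here are described. The 300 transcripts with the highest mean TPM (reads divided by effective length and scaled to the same total in every library) over 13 libraries were taken, and those for which the study's annotation tables, held here as a shortened copy, gave no Atlantic salmon, zebrafish or mouse gene name were kept. This gave 86 transcripts of the 146780 in the files, beside 214 named ones among the same 300. Of the 86, 52 are listed in this copy without a name and belong to 47 genes. The other 34 are not among the 1434 transcripts the copy lists. They were not shown to lack a name in the full tables, and are given as a class of their own. The transcripts were chosen by their mean TPM, so their level is a description and was not tested.

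The SV is a vascularized organ on the floor of the fish hypothalamus, lined by coronet cells, and has been proposed as a sensor of day length in salmonids. In juvenile Atlantic salmon, day length times smoltification, the set of changes that prepares the fish for seawater. RNA from SVs of the Aquagen commercial strain was sequenced in 4 groups. Fish of the SP-hold treatment were kept on a short photoperiod for 16 weeks. In the SPLL treatment, a short photoperiod of 8 weeks gave way to constant light for another 8. SVs were collected in freshwater (FW) or after 24 h in seawater (SW), and gave 4 SP-hold FW, 3 SP-hold SW, 2 SPLL FW and 4 SPLL SW libraries. Constant light was kept over the seawater tank. In SP-hold fish, transfer therefore changed the light as well, and salt and light cannot be told apart there. The labels call the libraries of a group biological replicates. The fish came from duplicate tanks, and the labels tie no library to a tank, so p-values measure the spread between these libraries, which may share a tank. The sex of the fish was not determined.

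Assigned reads ranged from 15346409 to 26502466 per library. In SPLL SW replicate 3 only 54154 transcripts had a read, while the count was 62901 to 70176 elsewhere. The SV genes epd (ependymin, a secreted glycoprotein of brain fluid) and prvt (parvalbumin, a calcium buffer) held 8.69 ± 1.57% of TPM (SD, n = 13) with 5 transcripts. The 15 listed hemoglobin chains, markers of erythrocytes, held 5.31 ± 2.54% over all libraries, 7.86 ± 3.16% in SPLL SW (n = 4) and 3.44 ± 0.645% in SP-hold SW (n = 3). In a bulk sample, fewer cells of a type and less RNA per cell cannot be told apart.

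By position, 8 of the 86 transcripts overlapped a gene for ribosomal RNA (rRNA), and 3 more lay on a pseudogene next to one. Genes for rRNA lie in tandem units, in which the genes for the small-subunit and large-subunit rRNA lie on either side of that for a short rRNA, and are transcribed by RNA polymerase I. Mature rRNA lacks a poly(A) tail, and mRNA libraries such as these are made from poly(A)-selected RNA, in which rRNA is depleted.

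The 86 transcripts held 29.6 ± 7.87% of TPM (SD, n = 13), with a range of 20.1% to 44.6% over the libraries. The 214 named transcripts held 31.5 ± 4.93%. By reads, in which no length enters, the 86 held 19.3 ± 6.22% and the named ones 20.8 ± 4.00%. Unnamed transcripts stood at the top of the ranking. They made up 8 of the first 10 by TPM, 22 of the first 50, 2 of these not listed, and 34 of the first 100, 5 of these not listed. The last of them inside the limit was ENSSSAT00000111208 at rank 297, with 326 ± 418 TPM. The first transcript without a name outside the limit was ENSSSAT00000142808 at rank 303, with 317 ± 90.2 TPM. Values at the limit itself were 324 TPM at rank 300 and 323 TPM at rank 301.

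**Figure D1:**
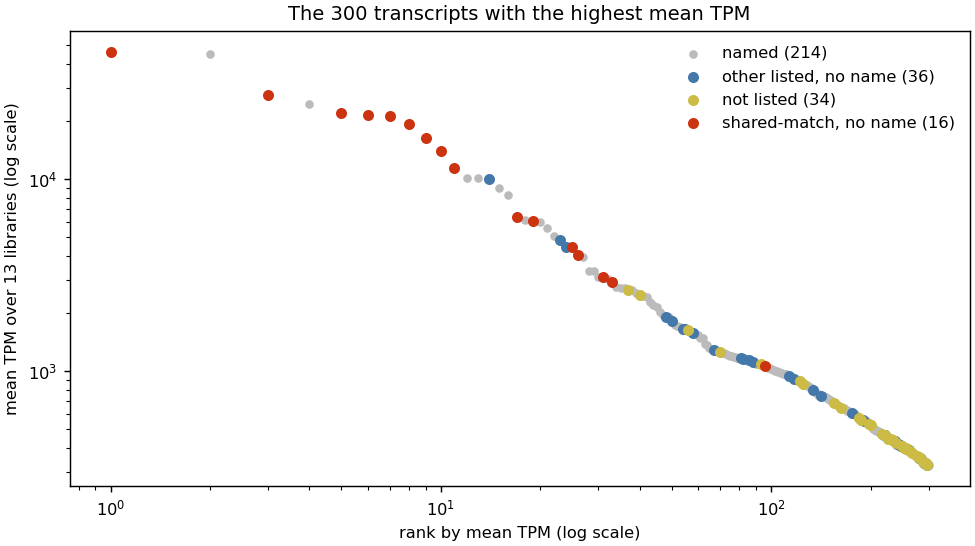
Mean TPM over 13 libraries (log scale) against rank (log scale) for the 300 most abundant transcripts, 1 point per transcript, coloured by annotation class. Transcripts of the shared-match group take 8 of the first 10 ranks, and transcripts not listed in the annotation tables begin at rank 37.

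The unnamed transcripts fell into 3 classes by their annotation. A first class of 16 transcripts of 13 genes shared a zebrafish match or a locus, and is called shared-match here. Of these, 5 were matched to the zebrafish identifier ENSDARG00000111458 and 9 to ENSDARG00000115978, and 2 had no match but lay within 10 kb of a matched gene. A further matched transcript, ENSSSAT00000252440, was at rank 469 and outside the 300. The shared-match transcripts held 22.8 ± 8.27% of TPM, which is most of what the 86 held, and 15.3 ± 6.37% of reads. The second class, 36 other listed transcripts, held 4.54 ± 0.345% of TPM, and the 34 transcripts not listed held 2.26 ± 0.571%.

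**Figure D2:**
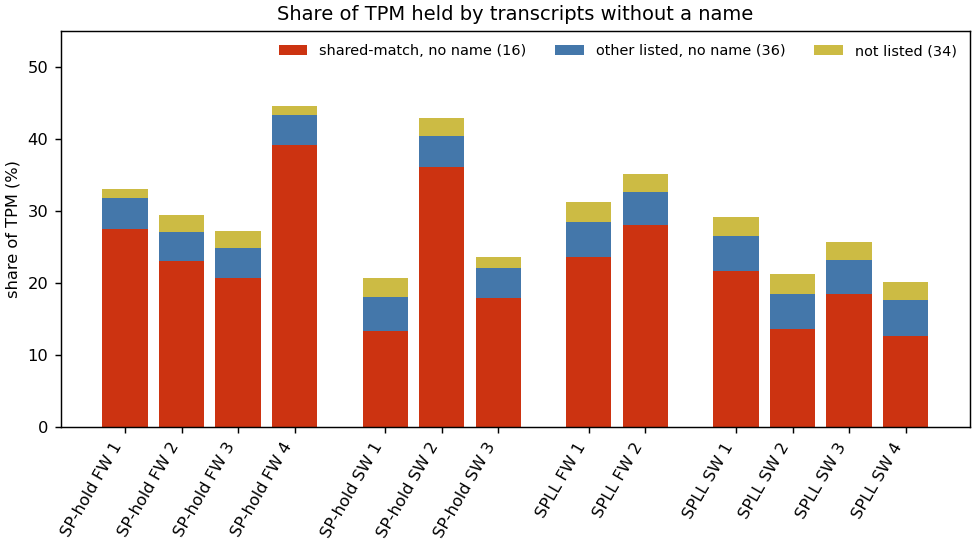
Share of TPM (%) in each of the 13 libraries held by the 3 classes of transcripts without a name, stacked from 0. The shared-match class ranges from 12.7% to 39.2% and sets most of the height, while the other listed class stays between 4.05% and 5.06%.

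The shared-match share varied within the SP-hold groups as much as between groups. It was 27.5%, 23.1%, 20.7% and 39.2% in the SP-hold FW libraries and 13.4%, 36.2% and 18.0% in SP-hold SW. It was 23.6% and 28.1% in SPLL FW and 21.7%, 13.6%, 18.5% and 12.7% in SPLL SW. SPLL SW had the lowest mean, 16.6 ± 4.23%. Its range overlapped that of both SP-hold groups but lay below both SPLL FW libraries. SP-hold FW replicate 4 and SP-hold SW replicate 2 were the highest. The share of the other listed class was far narrower, from 4.19 ± 0.113% in SP-hold FW (n = 4) and 4.39 ± 0.290% in SP-hold SW (n = 3) to 4.80 ± 0.166% (n = 2) and 4.87 ± 0.148% (n = 4) in the FW and SW libraries of SPLL. A share of TPM adds up to a fixed total, so a library rich in shared-match transcripts leaves less for all others. These shares were not tested.

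Gene positions in the annotation tables were compared with the RefSeq gene table of the same assembly, Ssal_v3.1. As a check on the coordinates, 813 of 815 genes with an Atlantic salmon name and a position overlapped a RefSeq gene. By a stricter check, 424 of these had a RefSeq gene of the same symbol, and 291 of the 424 (68.6%) overlapped it. Of the 86 transcripts, 46 belonged to a gene placed on a chromosome, and the genes of 8 of these overlapped an annotated rRNA gene. None of the 205 placed named transcripts among the 300 did. Over all listed genes on chromosomes, 6 of 140 without a name and 0 of 1176 with a name overlapped an rRNA gene. The gene interval was compared, and neither exons nor strand were. A further 3 of the 46 lay on a pseudogene next to rRNA genes, 26 overlapped a protein-coding gene, 4 a long noncoding RNA (lncRNA) gene and 5 no RefSeq gene. Another 6 transcripts lay on unplaced scaffolds, whose names could not be matched, and the 34 not listed had no position.

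Of the 16 shared-match transcripts, 7 overlapped an rRNA gene and 3 lay on a pseudogene next to one. On chromosome 9, ENSSSAT00000168257 and ENSSSAT00000189477 share the gene at chr9:101942342-101950520. That interval holds the whole of 2 RefSeq rRNA genes, LOC123724191 with 1836 bases and LOC123724184 with 154 bases, and most of the pseudogene LOC123724154 at chr9:101945445-101951552. ENSSSAT00000235646 at chr9:101946050-101951585 lies almost wholly on the same pseudogene. On chromosome 16, ENSSSAT00000218545 and ENSSSAT00000221624 share the gene at chr16:60135404-60156076. It spans rRNA genes of 154, 1836 and 154 bases and the pseudogenes at chr16:60136310-60142491 and chr16:60149742-60155938. ENSSSAT00000233977 at chr16:60149761-60154983 falls inside the second of these pseudogenes, and ENSSSAT00000203168 belongs to a long gene, chr16:59943811-60154983, that reaches over the same unit and also over the protein-coding genes LOC106573992, LOC106574222 and cldn34a. On chromosome 10, ENSSSAT00000221811 at chr10:109048074-109052263 overlaps rRNA genes of 155 and 1838 bases, and ENSSSAT00000210039 at chr10:109041901-109043090 lies in the pseudogene beside them. The gene of ENSSSAT00000221035, chr14:50117603-50118803, lies wholly inside the rRNA gene LOC123726963 of 1835 bases. ENSSSAT00000248573 at chr11:51871111-51872617 overlapped no RefSeq gene, and the remaining 5 are on unplaced scaffolds. No sequence of these transcripts was at hand, so their identity with rRNA was read from position alone.

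ENSSSAT00000232847, at rank 1, is a transcript of 198 bases on an unplaced scaffold with the zebrafish match ENSDARG00000111458. Its TPM was 54717, 54523, 50658 and 74396 in SP-hold FW and 11368, 70746 and 49178 in SP-hold SW. It was 42356 and 81477 in SPLL FW and 40017, 32824, 17041 and 19134 in SPLL SW. Values were high in SP-hold FW and SPLL FW and spread widely in SP-hold SW, whose lowest library was below all of SPLL SW. Salmon gave it an effective length of 8 bases, the number of start positions a fragment can have, so its mean of 46034 TPM rested on 281 CPM (reads scaled to the same total per library) and rank 218 by reads.

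ENSSSAT00000233977, by contrast, is 2854 bases long and stood at rank 2 of all transcripts by reads. It had 28301, 18441, 20301 and 27281 TPM in SP-hold FW and 16989, 35036 and 16861 TPM in SP-hold SW. It had 25121 and 25911 TPM in SPLL FW and 14026, 13560, 24136 and 10597 TPM in SPLL SW. The groups overlapped, and its mean was 21274 ± 7025 TPM (SD, n = 13). ENSSSAT00000248573, at rank 3, ranged from 15354 to 41971 TPM, with its highest value in SPLL SW replicate 1. ENSSSAT00000249225, at rank 8, ranged from 9955 to 36149 TPM, and ENSSSAT00000243398, at rank 6, from 10063 to 36861 TPM.

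ENSSSAT00000221811, at rank 5, varied most among the leading transcripts. It reached 67252 TPM in SP-hold FW replicate 4, where the other 3 libraries had 26768, 41372 and 34350. It was 26.9 TPM in SP-hold SW replicate 1 against 20855 and 12280 in the other 2, and 319 TPM in SPLL FW replicate 1 against 21133 in replicate 2. SPLL SW had 27241, 4184, 20521 and 11221 TPM. A single library of a group was thus at a small fraction of the level of its replicates on 2 occasions.

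Transcripts of the same gene differed in the same libraries. ENSSSAT00000239583 and ENSSSAT00000209054 belong to 1 gene on an unplaced scaffold. ENSSSAT00000239583 had 25273, 18780, 18511 and 21582 TPM in SP-hold FW, 14406, 29849 and 13706 in SP-hold SW and 26234 and 24181 in SPLL FW, but 4088, 2529, 11936 and 3088 in SPLL SW. All 4 SPLL SW libraries were thus below the other 9 in TPM. In normalised CPM, the scale of the tests below, they were not. SPLL SW replicate 3 had 19929 there, and SP-hold SW had 11222, 39075 and 12061. ENSSSAT00000209054 had 14314, 9340, 8477 and 9557 TPM in SPLL SW, while the other groups ran from 0 in SP-hold SW replicate 3 and 8.55 in SP-hold FW replicate 1 to 19460 in SP-hold FW replicate 4. Salmon divides reads between transcripts by estimate, and no sequences were at hand to compare, so the split between transcripts of 1 gene is given with that limit.

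ENSSSAT00000235646 was the second shared-match transcript to be low in all of SPLL SW. It had 30.4, 2131, 2587 and 54.3 TPM there, against 4577 to 12144 TPM in the other 9 libraries. The third, ENSSSAT00000221035, had 1951, 1778, 2417 and 1200 TPM in SPLL SW and 2501 to 6250 TPM elsewhere. In normalised CPM, the scale of the tests below, SPLL SW overlapped SP-hold SW in both. ENSSSAT00000235646 had up to 4036 in SPLL SW and 4005 or more in SP-hold SW. For ENSSSAT00000221035 these were 1889 and 994. ENSSSAT00000210039 was low in SPLL SW but overlapped, with 243, 3187, 0 and 79.2 TPM against 1253 to 15124 TPM elsewhere. Neither ENSSSAT00000239583 (SPLL SW against SPLL FW, log2 fold change −2.20, SE 0.83, FDR = 0.357 by edgeR's quasi-likelihood test) nor ENSSSAT00000235646 (−3.07, SE 1.41, FDR = 0.485) nor ENSSSAT00000221035 (FDR = 0.623) passed the threshold of 0.05. Neither edgeR nor DESeq2 called any of the 16 shared-match transcripts in the 7 tests below (0 of 16 in each).

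**Figure D3:**
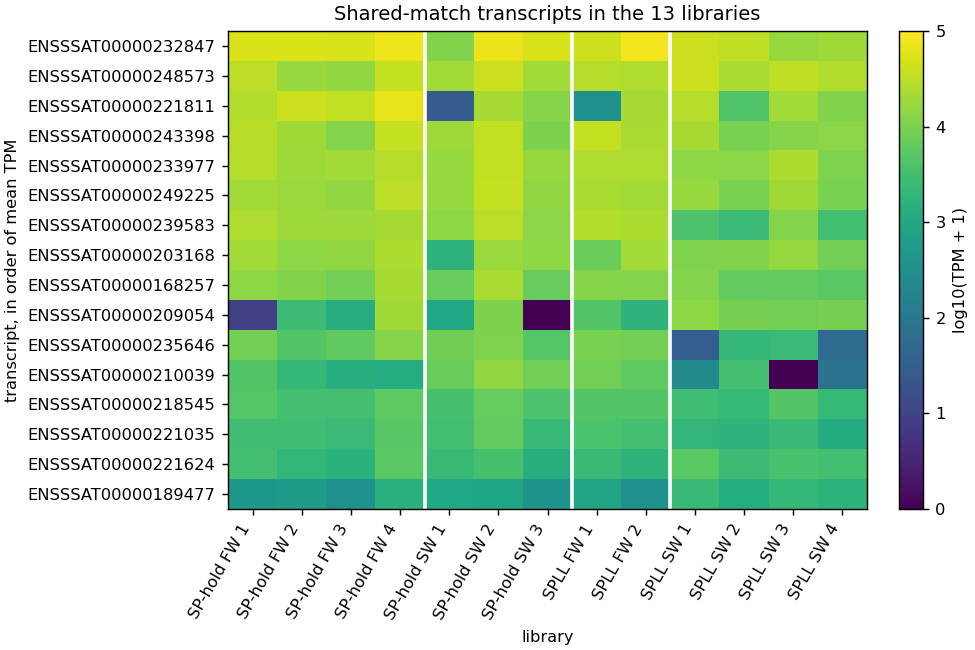
log10(TPM + 1) of the 16 shared-match transcripts (rows, in order of mean TPM) in the 13 libraries (columns, groups divided by white lines). ENSSSAT00000221811, ENSSSAT00000209054, ENSSSAT00000235646 and ENSSSAT00000210039 fall to 319 TPM or less in 2 or 3 libraries each, while ENSSSAT00000233977 and ENSSSAT00000249225 stay within the range of 9955 to 36149 TPM.

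Pairs of shared-match transcripts varied in how far they moved together. Over 120 pairs, Spearman's rho of TPM over the 13 libraries ranged from −0.57 to 0.94 with a median of 0.41. It was over 0.5 in 53 pairs and negative in 24. These coefficients are a description, since the transcripts share libraries and partly genes. The lowest levels belonged to ENSSSAT00000189477 (1061 ± 688 TPM, rank 96), ENSSSAT00000221624 (2920 ± 1240 TPM), ENSSSAT00000221035 (3084 ± 1368 TPM) and ENSSSAT00000218545 (4009 ± 1304 TPM). ENSSSAT00000168257 (11377 ± 5878 TPM) and ENSSSAT00000203168 (14045 ± 6044 TPM) were intermediate.

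ENSSSAT00000238496, at rank 14 and among the 10 most abundant unnamed transcripts, carries another zebrafish identifier, ENSDARG00000115988. Its gene at chr15:206636-207810 overlaps no RefSeq gene. It had 10024 ± 3133 TPM (SD, n = 13), from 5772 TPM in SP-hold FW replicate 3 to 15060 TPM in SPLL SW replicate 1, and no contrast passed (SPLL SW against SP-hold SW 0.43, SE 0.55, FDR = 0.798 by edgeR). ENSSSAT00000174923, the one transcript outside the shared-match class whose gene overlapped an rRNA gene, lies at chr14:54722053-54731677. That interval holds an rRNA gene of 154 bases, LOC123726920, and part of the pseudogene LOC123726918.

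Length shaped the ranking by TPM. The unnamed and the named transcripts had like median lengths, 791 and 762.5 bases, and like median effective lengths, 496 and 512 bases. The shortest was ENSSSAT00000243312 with 159 bases and the longest ENSSSAT00000099192 with 5640 bases. An effective length under 20 bases occurred in 7 of the 86 and in 2 of the 214 named transcripts. These 7 held 5.39 ± 2.37% of TPM but 0.0330 ± 0.0165% of reads. ENSSSAT00000232847 alone accounts for most of this TPM. The others were ENSSSAT00000230178, ENSSSAT00000141323, ENSSSAT00000144259, ENSSSAT00000140190, ENSSSAT00000243312 and ENSSSAT00000225754. ENSSSAT00000243312 had 524 ± 214 TPM with an effective length of 5 bases, from a mean of 2.01 CPM and rank 38674 by reads.

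By reads, 50 of the 86 were among the first 300 transcripts, and by reads per kilobase of full length 71 were. Of the 214 named transcripts, 135 and 193 were. A rank by reads beyond 1000 was found for 18 of the 86 and 27 of the 214. All 16 shared-match transcripts were within the first 300 by reads and by full length. The level of this class therefore did not rest on short effective lengths, except for ENSSSAT00000232847.

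**Figure D4:**
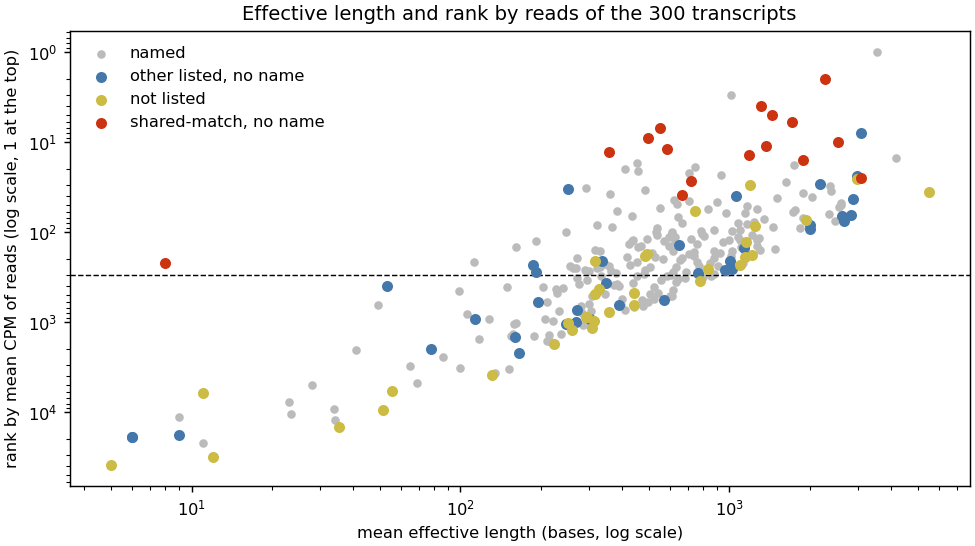
Rank by mean CPM (log scale, rank 1 at the top) against mean effective length in bases (log scale) for the 300 transcripts, 1 point each, with a dashed line at rank 300. Transcripts with an effective length under 20 bases, 7 without and 2 with a name, lie below the line apart from ENSSSAT00000232847, at rank 218 by reads.

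As a set, unnamed transcripts varied more between libraries than named ones, but this did not hold for every class by each measure. The coefficient of variation (CV) of TPM over the 13 libraries had a median of 41.7% for the 86 and 20.8% for the 214. It was 24.4% in the other listed class, 47.2% in the shared-match class and 60.5% among the transcripts not listed. A CV over 100% occurred in 10 of the 86, 9 of which were not listed, and in 0 of the 214. A value of 0 in at least 1 library occurred in 18 of the 86, 16 of which were not listed, and in 1 of the 214. Within groups, the pooled SD of log2 CPM had a median of 0.63 for the 82 unnamed transcripts that passed the filter on low counts, 0.43 for the named ones and 0.53 for all 46395 transcripts tested. It exceeded 1 in 21 of 82 and in 2 of 214. By class the median was 0.34 in the other listed class, below that of the named ones. In the shared-match class it was 0.90, and among the transcripts not listed 1.00. An SD over 1 occurred in 1 of 36, 5 of 16 and 15 of 30 of these. These are descriptions of transcripts, which are no replicates, and carry no test.

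The 3 widest within groups were ENSSSAT00000198577 (pooled SD 5.12), ENSSSAT00000209054 (5.04) and ENSSSAT00000019704 (4.50). ENSSSAT00000198577, not listed, had 9261 TPM in SPLL FW replicate 1 and 0 in replicate 2. In SP-hold SW it had 7159, 4372 and 63.9 TPM, in SPLL SW 0.304, 576, 0.224 and 1.74 TPM, and in SP-hold FW at most 1.87 TPM. It thus varied widely between libraries of the same group in SPLL FW, SP-hold SW and SPLL SW. How Salmon divided reads between this and other transcripts was not tested. ENSSSAT00000230178 behaved alike, with 7996, 9640, 11309 and 5408 TPM in 4 libraries from 3 groups and 0 in the other 9. The 3 steadiest within groups were ENSSSAT00000213434 (0.07), ENSSSAT00000054094 (0.11) and ENSSSAT00000224628 (0.12), all listed. Steady here does not mean equal between groups. In the tests below, edgeR called none of the 3, but DESeq2 called all 3 in the 4-group test and for SPLL against SP-hold in SW. In normalised CPM, ENSSSAT00000213434 was lower in SPLL than in SP-hold without overlap, both in FW and in SW.

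A pair of transcripts not listed, ENSSSAT00000019665 with 719 bases and ENSSSAT00000019704 with 725 bases, replaced each other from library to library. ENSSSAT00000019665 had 1304, 1607, 1098 and 361 TPM in SP-hold FW, 154, 1446 and 1490 in SP-hold SW, 0 and 0 in SPLL FW and 941, 1559, 984 and 562 in SPLL SW. ENSSSAT00000019704 had 56.2, 0, 853 and 1200 TPM in SP-hold FW, 1418, 28.5 and 0 in SP-hold SW, 1889 and 1872 in SPLL FW and 892, 155, 1506 and 1245 in SPLL SW. Where the first was at its lowest, the second was high. Their sum was 1740 ± 291 TPM (SD, n = 13), a CV of 16.7% against 68.2% and 85.3% for each alone. By group the sum was 1620 ± 245 in SP-hold FW, 1512 ± 52.2 in SP-hold SW, 1881 ± 12.3 in SPLL FW and 1961 ± 356 TPM in SPLL SW. This pair had the lowest ratio of the CV of the sum to the smaller of both single CVs among 3655 pairs of the 86, and was chosen after its values were seen.

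Group differences were tested across the whole table. The estimated reads of 46395 transcripts whose median CPM was 0.77 or more, 82 of the 86 among them, were fitted with edgeR's quasi-likelihood test, and Benjamini-Hochberg FDR values are over all of them. A test over the 4 groups used an FDR of 0.01, and 6 contrasts an FDR of 0.05. Since the mean TPM over all groups chose the transcripts, one that is high in 1 group only could enter through that group, and counts of calls among the 82 describe a chosen set. With 1 group left out, the mean fell below the limit for 11 of the 86 without SPLL SW and 6 without SP-hold SW. Without SPLL FW it did for 5, and without SP-hold FW for 2. Fold changes are on the scale of reads after TMM normalization. TPM shares out a fixed total, so it can overlap where this scale does not, and the reverse.

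The 4-group test called 1 of the 82 (background over all transcripts 0.0625%), ENSSSAT00000228639. SW against FW in SP-hold called 0 by edgeR (background 0.0841%). An unadjusted p under 0.05 was found for 20 of the 82 there, and DESeq2 called 9 of 81, at a background of 2.96%. SW against FW in SPLL called 2, both higher in SW (background 0.269%, and 0.19% for higher), and SW against FW averaged over photoperiods called the same 2 (background 0.222%, and 0.14% for higher). SPLL against SP-hold in FW called 2, both lower in SPLL (background 0.0905%, and 0.0797% for lower). The interaction of photoperiod and SW called 2 with a higher SW effect in SPLL (background 0.226%, and 0.147% for higher). In each of these, the 2 were ENSSSAT00000228639 and ENSSSAT00000019665. SPLL against SP-hold in SW called 13, of which 11 were higher and 2 lower in SPLL. This is 15.9% of the 82 beside a background of 3.05% (1.43% higher and 1.63% lower). Some of the 11 entered the set only through SPLL SW, as given below, so this share cannot be weighed against the background. In all, 14 transcripts were called at least once. Of the 81 of the 82 to which DESeq2 gave an adjusted p, it called 22 in the 4-group test (background 7.45%), 16 for SW against FW in SPLL (4.98%) and 15 for the average of both SW effects (3.97%). For photoperiod it called 9 in FW (3.26%) and 26 in SW (11.9%), and for the interaction 14 (4.54%).

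The median log2 fold change of the 82 was −0.41 for SW against FW in SP-hold, −0.10 for the same contrast in SPLL, and for SPLL against SP-hold it was 0.29 in FW and 0.45 in SW. Over all transcripts tested it was −0.01, 0.01, −0.02 and −0.03. The medians of the 82 moved with single libraries. In SP-hold the value for SW against FW was −0.67 without SP-hold SW replicate 2 and −0.23 without SP-hold SW replicate 3. In SPLL it was −0.35 when SPLL SW replicate 3 was left out and 0.03 when SPLL FW replicate 2 was, so its sign was not fixed. For SPLL against SP-hold, the SW value was 0.21 without SPLL SW replicate 3 and 0.75 without SP-hold SW replicate 2, and the FW value was 0.18 without SP-hold FW replicate 2.

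ENSSSAT00000228639, a listed transcript of 2509 bases, differed in most comparisons. Its gene at chr1:90539179-90543014 covers the whole of the protein-coding RefSeq gene LOC106609864 and the end of LOC106609854. It had 460, 443, 373 and 279 TPM in SP-hold FW, 501, 331 and 468 in SP-hold SW, 167 and 169 in SPLL FW and 503, 683, 310 and 616 in SPLL SW. SPLL FW was below all other libraries, and SPLL SW overlapped both SP-hold groups in TPM. In normalised CPM the SPLL SW libraries, at 820 ± 91.5 (n = 4), lay above SP-hold SW, at 505 ± 29.1 (n = 3), and above SPLL FW, at 301 ± 30.1 (n = 2), and SP-hold FW was at 613 ± 41.3 (n = 4). SW against FW in SPLL was 1.44 on the log2 scale (SE 0.14, edgeR FDR = 0.00412). The interaction was 1.72 (SE 0.18, edgeR FDR = 0.00606), so its change on transfer differed between photoperiods. Transfer changed the light as well in SP-hold, so this difference cannot be assigned to salt. SPLL against SP-hold was −1.02 in FW (SE 0.13, edgeR FDR = 0.0238) and 0.70 in SW (SE 0.12, edgeR FDR = 0.0175). The calls for SW against FW in SPLL and for the interaction held when any 1 of the 13 libraries was left out. The photoperiod call in FW did not survive leaving out SPLL FW replicate 1 or the second SP-hold FW library (FDR up to 0.0741), and that in SW was lost without SP-hold SW replicate 1 or 3 or SPLL SW replicate 1 (FDR up to 0.0964). The call averaged over photoperiods (edgeR FDR = 0.0294) was lost without 8 of the 13 in turn, at an FDR of at most 0.0729. The 4-group call (edgeR FDR = 0.00986) was near its threshold and was lost without 12 of the 13 libraries in turn, at an FDR of at most 0.0284.

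ENSSSAT00000019665 had 0 reads in both SPLL FW libraries. Against a floor of 3 reads in each library, 0.127 CPM in SPLL FW, it was at least 2967-fold higher in SPLL SW (378 ± 144 CPM, n = 4) and at least 3071-fold higher in SP-hold FW (145 to 565 CPM, n = 4). The edgeR FDR was 0.0201 for SW against FW in SPLL, 0.029 averaged over photoperiods, 0.0342 for SPLL against SP-hold in FW and 0.0305 for the interaction. Its counterpart ENSSSAT00000019704 was at its highest in these libraries, and the sum of the pair in SPLL FW lay within 1360 to 2490 TPM, the range of the other libraries. Without either SPLL FW library all 4 calls were lost, that for SW against FW in SPLL at an FDR of up to 0.0688. Over the 13 libraries left out in turn, the photoperiod call in FW was lost 8 times (FDR up to 0.0801), the interaction 6 times (up to 0.0679) and the averaged call 5 times (up to 0.0783).

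**Figure D5:**
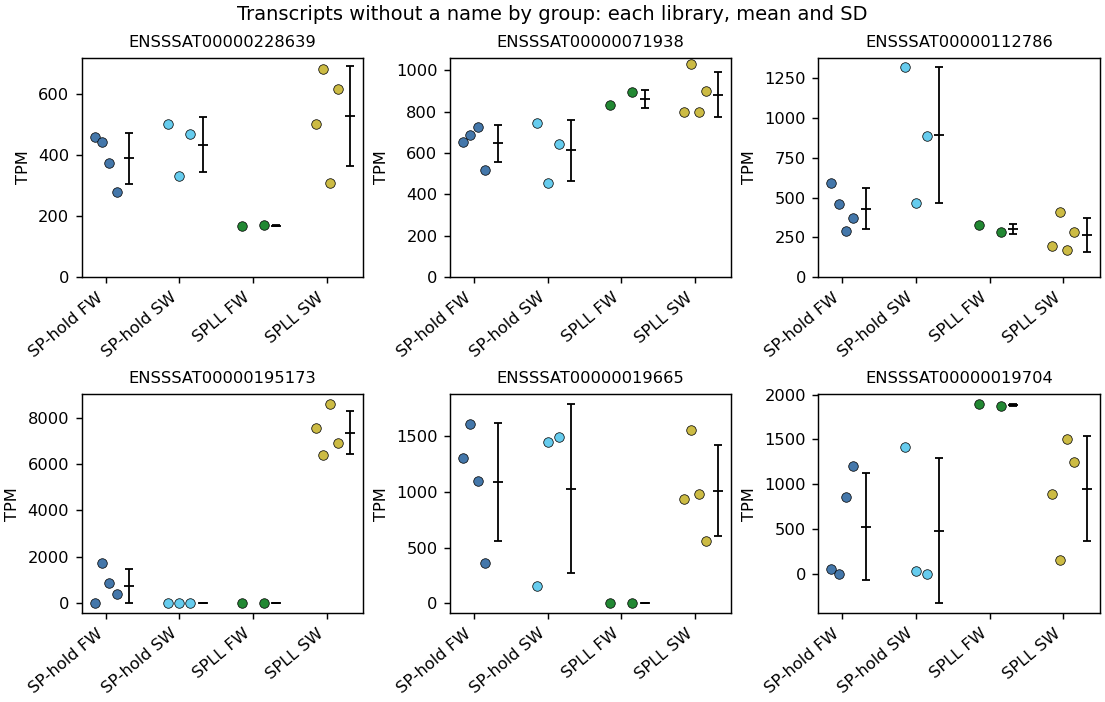
TPM of 6 transcripts by group, 1 point per library, with the mean and SD (bars, n = 4, 3, 2 and 4) beside them, where a bar may reach below 0. ENSSSAT00000228639 is lowest in the 2 SPLL FW libraries at 167 and 169 TPM, and ENSSSAT00000019665 and ENSSSAT00000019704 replace each other. ENSSSAT00000195173 is highest in SPLL SW, at 6403 to 8583 TPM, and is also present at lower levels in SP-hold FW.

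Among the 13 calls of SPLL against SP-hold in SW, ENSSSAT00000071938 had the lowest p. This listed transcript of 824 bases at chr5:55590597-55594183 overlaps no RefSeq gene. Normalised CPM was 124, 125 and 118 in SP-hold SW and 252, 250, 276 and 217 in SPLL SW, with no overlap. The log2 fold change was 1.03 (SE 0.12, edgeR FDR = 0.00685), and the call held without any 1 library. It also had the lowest p for SW against FW in SP-hold, where it was lower in SW without passing by edgeR (−0.60, SE 0.12, edgeR FDR = 0.146), while DESeq2 called it. In TPM it was 520 to 726 in SP-hold FW, 454 to 744 in SP-hold SW, 830 and 893 in SPLL FW and 798 to 1030 in SPLL SW, so every SPLL library was above every SP-hold library.

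ENSSSAT00000112786 had the lowest p among those lower in SPLL SW. Its description is si:dkey-34f9.3, a zebrafish gene without an assigned function, and its gene at chr25:9394853-9395617 overlaps the protein-coding LOC106586089. It had 592, 461, 291 and 371 TPM in SP-hold FW, 1319, 467 and 890 in SP-hold SW, 327 and 283 in SPLL FW and 198, 408, 171 and 283 in SPLL SW. SP-hold SW was the high group. SPLL against SP-hold in SW was −1.62 (SE 0.24, edgeR FDR = 0.0139), and SW against FW in SP-hold was 0.82 (SE 0.24, edgeR FDR = 0.279). The other transcript lower in SPLL SW was ENSSSAT00000174923 of the rRNA locus on chromosome 14, with 128, 62.3, 232 and 43.6 TPM against 2376, 2305 and 1110 in SP-hold SW (−3.87, SE 0.80, edgeR FDR = 0.0365). Its SPLL FW libraries, at 3381 and 3282 TPM, were the highest of all.

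Higher in SPLL SW by less than 2-fold were ENSSSAT00000176102 (0.76, SE 0.12, edgeR FDR = 0.0149), which overlaps the lncRNA gene LOC106582879, ENSSSAT00000193735 (0.81, SE 0.13, edgeR FDR = 0.0159), which overlaps the protein-coding LOC106560581, ENSSSAT00000228639 and ENSSSAT00000159741 (0.89, SE 0.15, edgeR FDR = 0.0213), which is not listed. ENSSSAT00000193735 had 346, 192 and 357 TPM in SP-hold SW and 350, 473, 254 and 482 TPM in SPLL SW, which overlap. In normalised CPM it had 173, 163 and 197 against 310, 319, 286 and 332, which do not. ENSSSAT00000104381, of a gene overlapping LOC100194650, rose (edgeR FDR = 0.0373), from 31.6 ± 5.25 normalised CPM in SP-hold SW to 67.9 ± 23.2 in SPLL SW, or from 306 ± 37.3 TPM in SP-hold SW to 503 ± 29.4 TPM in SPLL SW. ENSSSAT00000144259, with an effective length of 6 bases, rose by 1.41 (SE 0.33, edgeR FDR = 0.0476) from 3.52 ± 0.722 to 9.40 ± 4.11 normalised CPM. ENSSSAT00000074852, not listed, rose by 1.99 (SE 0.45, edgeR FDR = 0.0458), with 69.4, 180 and 190 TPM in SP-hold SW and 503, 448, 518 and 676 TPM in SPLL SW.

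Of the 13, 5 were not listed. Large increases in SPLL SW are in part what the choice by mean TPM selects. Over the 9 libraries outside SPLL SW, 11 of the 86 had a mean below the 324 TPM at rank 300, and 4 of these were among the calls: ENSSSAT00000177593 (15.7 TPM), ENSSSAT00000181663 (92.3 TPM), ENSSSAT00000074852 (282 TPM) and ENSSSAT00000193735 (307 TPM). Their increases are given as a description. ENSSSAT00000195173, of 1441 bases, had 7561, 6403, 8583 and 6890 TPM in SPLL SW and 0 in all SP-hold SW and SPLL FW libraries. In SP-hold FW it had 0, 1713, 853 and 414 TPM, so it was not confined to SPLL SW. Its TPM ran against that of the shared-match ENSSSAT00000235646 (Pearson's r −0.85, n = 13). The CV of their sum was 25.3%, against 138% for ENSSSAT00000195173 and 67.0% for ENSSSAT00000235646. This pair was picked from 3655 after its values were seen, and how Salmon divided reads between them was not tested. By Salmon's estimates, against the floor of 3 reads, ENSSSAT00000195173 was at least 53360-fold higher in SPLL SW than in SP-hold SW (edgeR FDR = 0.0413). This call was lost without 12 of the 13 libraries in turn (FDR up to 0.142), with no filter (0.0981), with filterByExpr (0.0681) and with effective-length offsets (0.0623). ENSSSAT00000177593 had 5062, 112, 49.6 and 1498 TPM in SPLL SW and 5.68 to 25.4 TPM in the other 9 libraries (7.36, SE 1.59, edgeR FDR = 0.0397), and its call was lost without 11 of the 13 (FDR up to 0.16). ENSSSAT00000181663 had 2000, 365, 1042 and 745 TPM in SPLL SW and 48.5 to 144 TPM elsewhere (4.02, SE 0.76, edgeR FDR = 0.028), a call lost without 3 of the 13 (FDR up to 0.126). In both, the SPLL SW libraries lay above all others but spread widely, with SPLL SW replicate 1 the highest. SPLL SW against SPLL FW did not pass by edgeR for ENSSSAT00000177593 (6.12, SE 1.80, edgeR FDR = 0.216) or ENSSSAT00000181663 (3.23, SE 0.86, edgeR FDR = 0.174). DESeq2 called both in this contrast.

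The count of 13 depended on single libraries, as did the 1417 calls over all transcripts. It was 1 when SP-hold SW replicate 1 was left out, 4 when SP-hold SW replicate 3 was, and 5 when SPLL SW replicate 1 was. Calls over all transcripts were 140, 253 and 284 there. Leaving out either library of SPLL FW, the fourth of SPLL SW, the second of SP-hold SW, or the second or the fourth of SP-hold FW gave 7. Over all transcripts these gave 528 to 809. Without SPLL SW replicate 3, the library with few detected transcripts, 11 were called, 8 higher and 3 lower, and 961 over all transcripts. Of the other calls, ENSSSAT00000144259 was lost without 12 of the 13 libraries in turn, ENSSSAT00000074852 without 11, ENSSSAT00000174923 without 10 and ENSSSAT00000104381 without 9. ENSSSAT00000176102 and ENSSSAT00000159741 were lost without 2, and ENSSSAT00000193735 and ENSSSAT00000112786 without 1. For SW against FW in SPLL, leaving out SPLL SW replicate 3 raised the count from 2 to 6, of which 4 were lower in SW. Over all transcripts that count rose from 125 to 501.

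In TPM, all 4 SPLL SW libraries lay above the other 9 for 6 of the 82 (background 0.64%) and below them for 5 (background 0.272%). Above were ENSSSAT00000195173, ENSSSAT00000177593, ENSSSAT00000013421, ENSSSAT00000104381, ENSSSAT00000181663 and ENSSSAT00000234508. Below were the shared-match transcripts ENSSSAT00000239583, ENSSSAT00000235646 and ENSSSAT00000221035, ENSSSAT00000174923 of an rRNA locus, and ENSSSAT00000203072, whose gene overlaps the lncRNA gene LOC106573482. For the 5 below, this separation did not hold on both scales. In normalised CPM, only ENSSSAT00000174923 of the 5 had SPLL SW below SP-hold SW, and in the others of the 5 SPLL SW overlapped SP-hold SW. All of the 6 above had SPLL SW above SP-hold SW in normalised CPM too, while ENSSSAT00000104381 overlapped SPLL FW there. The choice by mean TPM favours transcripts high in SPLL SW, so the 6 above cannot be weighed against the background. Over the other 9 libraries, mean TPM was 15.7 for ENSSSAT00000177593, 92.3 for ENSSSAT00000181663, 187 for ENSSSAT00000234508 and 311 for ENSSSAT00000013421. These means are below the rank limit of 324 TPM, so these transcripts entered the set through SPLL SW. ENSSSAT00000195173 and ENSSSAT00000104381 did not. The mean share of hemoglobin chains was highest in SPLL SW, whose libraries had 4.59% to 11.4%. They overlapped SP-hold FW (up to 5.44%) and SPLL FW (up to 5.82%), but all lay above SP-hold SW (2.73% to 4.00%). The part of erythrocytes in these differences was not tested.

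Several listed transcripts could be read through their position or description. Ribosomal proteins were ENSSSAT00000065768 and ENSSSAT00000065812, which share the gene at chr14:80966284-80968612 over rplp1, a stalk protein of the large subunit, ENSSSAT00000111753 over rpl35 at chr1:159338144-159348707, and ENSSSAT00000160855 over rs15a at chr12:24548788-24556626. ENSSSAT00000065768 had 4462 ± 1585 TPM and ENSSSAT00000065812 had 1907 ± 604 TPM (SD, n = 13). ENSSSAT00000111753 had 914 ± 215 TPM, with 668 to 855 in SP-hold SW and 938 to 1466 in SPLL SW, and ENSSSAT00000160855 had 327 ± 45.9 TPM. SPLL against SP-hold in SW had positive values that did not pass by edgeR in all 4, from 0.73 (SE 0.31, edgeR FDR = 0.24) for ENSSSAT00000160855 to 1.41 (SE 0.42, edgeR FDR = 0.0946) for ENSSSAT00000065768. DESeq2 called ENSSSAT00000065768, ENSSSAT00000065812 and ENSSSAT00000111753 in this contrast, but not ENSSSAT00000160855. The 132 named ribosomal protein transcripts held 10.9 ± 2.31% of TPM in SPLL SW (n = 4) and 7.94 ± 0.117% in SP-hold SW (n = 3).

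FXYD proteins are small regulators of the Na+,K+-ATPase, the pump that drives salt transport. ENSSSAT00000091836 over fxyd9b at chr5:67959341-67974856 had 512 and 580 TPM in SPLL FW and 356, 449, 321 and 472 in SPLL SW. ENSSSAT00000055638 over fxyd9a at chr2:26084829-26098077 had 477 and 501 TPM in SPLL FW and 351 ± 45.7 TPM in SPLL SW (n = 4). In both, SPLL SW lay below SPLL FW, without passing by edgeR. In normalised CPM, SP-hold SW also lay below SP-hold FW in both, and SPLL FW lay above SP-hold FW, again without passing by edgeR. DESeq2 called both for SW against FW in SPLL, for SW against FW averaged over photoperiods and in the 4-group test. It also called ENSSSAT00000091836 for SPLL against SP-hold in FW. SW against FW averaged over photoperiods was −0.57 (SE 0.11, edgeR FDR = 0.0856) for ENSSSAT00000091836 and −0.54 (SE 0.13, edgeR FDR = 0.169) for ENSSSAT00000055638.

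ENSSSAT00000102985, described as heme-binding protein soul5 and over LOC106600932 at chr3:53410250-53412844, had 1834 ± 438 TPM, from 1312 to 2817. ENSSSAT00000103182, described as phosphodiesterase 9A like, of an enzyme family that degrades cyclic GMP, had 348 ± 111 TPM. It reached 627, 331 and 465 TPM in SP-hold SW and 245 to 380 TPM in SP-hold FW (0.29, SE 0.11, edgeR FDR = 0.43). ENSSSAT00000006689 over apoc1, an apolipoprotein gene at chr2:24292741-24293768, had 557 ± 99.9 TPM, and ENSSSAT00000085542 over h2ax, a histone variant gene at chr4:33978646-33979298, had 432 ± 72.4 TPM. None of these passed an edgeR test. DESeq2 called ENSSSAT00000102985 for SPLL against SP-hold in SW. ENSSSAT00000224628, the most abundant of the other listed transcripts by reads, had 4849 ± 1259 TPM and lies on an unplaced scaffold.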

How the data were processed

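The authors made stranded mRNA libraries, trimmed single-end reads with Cutadapt and ran Salmon 1.1.0, with its GC bias option, against transcripts of assembly Ssal_v3.1. The deposited files give estimated counts (expected counts, not whole numbers) and TPM per transcript. The authors left out 3 libraries with few reads.

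Members were the unnamed transcripts among the 300 highest by mean TPM. The members and lists were chosen with earlier results of these data known. Names and positions come from a shortened copy of the study's supplementary tables, which lists 1434 transcripts, and the RefSeq gene table of Ssal_v3.1. Their values, and the authors' fold changes and p-values, were not used.

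Estimated counts were rounded. After a filter at a median of 0.77 CPM, they were fitted in edgeR 4.0.16 (glmQLFit, glmQLFTest, TMM factors, 4 group means, 9 residual degrees of freedom), with Benjamini-Hochberg adjustment over 46395 transcripts. The SE was taken as the absolute log2 fold change over the root of F. SPLL FW, with 2 libraries, is assumed to vary like the other groups. On simulated data for SW against FW in SP-hold (46395 transcripts), the fit called 18 of 100 transcripts changed 4-fold, 2 of 100 changed 2-fold and 1 unchanged. R 4.3.3 and DESeq2 1.42.0 were used. Alternatives were DESeq2, other normalisation factors, other filters, effective-length offsets, a replicate block and leaving out each library.

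Transcripts are named by a rule. It takes the 10 highest by TPM, every one past a test or with the lowest p in it, the 3 widest and 3 steadiest within groups, those with a description or a RefSeq symbol, the shared-match class, the shortest and longest, and those at the rank limit. ENSSSAT00000230178, ENSSSAT00000019704 and the transcripts listed for short effective length or absence of overlap were named after their values were seen.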

Additional observations from a re-analysis of the deposited data

Results flagged for a closer look

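Within groups of 4 libraries, 5 single values stood far from the other 3 (a gap to the nearest that exceeds Dixon's critical value), among 60 groups examined over 30 transcripts. Chance alone would mark about 1 in 20 groups. The first was ENSSSAT00000239583 in SPLL SW replicate 3, at 11936 TPM against 2529 to 4088 TPM in the other SPLL SW libraries. ENSSSAT00000168257 had 11920 TPM in SPLL SW replicate 1 against 5335 to 6331 TPM. ENSSSAT00000210039 had 3187 TPM in SPLL SW replicate 2 against 0 to 243 TPM. In SP-hold FW replicate 4, ENSSSAT00000209054 was high, at 19459 TPM against 8.55 to 2688 TPM, and ENSSSAT00000193735 was low, at 204 TPM against 338 to 362 TPM. Of the 5, 4 are shared-match transcripts, a count not set against the share of this class among the 30 examined.

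In 2 transcripts the response to transfer differed between photoperiods by the test of the interaction itself. In SP-hold the transfer changed the light as well, so salt and light cannot be told apart in this difference. For ENSSSAT00000228639 the log2 difference of the SW effects was 1.72. For ENSSSAT00000019665 the fitted value was 16.19, which depends on the prior count, since both SPLL FW libraries were at 0, and is no measure of size. Its counterpart ENSSSAT00000019704 was at its highest in those libraries. The interaction call of ENSSSAT00000019665 was lost without 6 of the 13 libraries in turn. With the replicate block neither call passed (edgeR FDR = 0.0897 for ENSSSAT00000228639 and 0.12 for ENSSSAT00000019665).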

How the results depend on the processing

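Of the 21 calls of members in the 6 contrasts, none reversed under any alternative. DESeq2 and TMM factors computed without the members left all 21 past the threshold, and RLE factors left 20. Effective-length offsets left 13, edgeR's filterByExpr 15, no filter on low counts 9, the replicate block 3, and leaving out 1 library 165 of 273. The filters admit more transcripts to the adjustment, and the cause of the other losses was not tested.

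DESeq2 called 22 members in the 4-group test, 9 and 16 for SW against FW in SP-hold and in SPLL, 15 averaged over both, 9 (FW) and 26 (SW) for SPLL against SP-hold, and 14 for the interaction. The 4-group count was 0 with no filter, filterByExpr or effective-length offsets. For SPLL against SP-hold in SW the count was 4 with no filter, 7 with filterByExpr and 5 with effective-length offsets. Over all transcripts it was 197, 494 and 312. With no filter, the averaged SW contrast called 1 and SPLL against SP-hold in FW 0.

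Replicate numbers did not pair the libraries. Deviations from the group means correlated at −0.03 to 0.09 between same-numbered libraries (16 pairs) and at −0.09 to 0.06 between others (46 pairs). With the replicate block, SPLL against SP-hold in SW called 4 members, and every other test called 0 members. Over all transcripts that contrast called 146 with the block.

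Leaving out 1 library gave 0 to 1 calls in the 4-group test, 0 to 1 and 1 to 6 for SW against FW in SP-hold and in SPLL, 0 to 6 averaged over both, 0 to 3 (FW) and 1 to 12 (SW) for SPLL against SP-hold, and 1 to 3 for the interaction. Calls over all transcripts for SPLL against SP-hold in SW then ranged from 140 to 1334.

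The rule gave 34 members among the top 100 and 337 among the top 1000, and 52 when only listed transcripts count. It gave 79 by median TPM, 86 by mean CPM (50 of them the same) and 76 by full length, and 83 to 87 without 1 library. The share of TPM stayed between 27.1% and 33.0%. Members with under 20 bases of effective length rest on few reads, and their TPM is imprecise.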
